A study of Mus musculus with 6 samples.

Results

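Contacts of the bins that hold the starts of Spi1, Spib, Irf4 and Irf8 were described in chromatin of cultured mouse B-cell progenitors with and without Erg. The members were 4 genes of 4 chromosomes, each taken with the bin of about 100 kb that holds its start on mm10 and with all bins within 1 Mb on either side, which made 4 windows of 21 bins, or 84 of 26731 bins. In situ Hi-C joins and sequences pieces of DNA that neighbour each other in the nucleus, and each read pair counts as 1 contact. It had been done on 3 groups with 2 libraries each. The Erg KO group was Rag1CreT/+;Erg fl/fl, and the CreT control was Rag1CreT/+ and had no floxed allele. The Erg fl/fl control, Rag1Cre+/+;Erg fl/fl, had floxed alleles, and +/+ is read here as no transgene. The strain was C56BL/6 in every label, where the study's methods name C57BL/6J. Lineage-negative bone marrow cells of all 3 groups had been kept for 8 days with SCF, IL7 and FL on a feeder layer of OP9 stroma and were then selected for B220, so that feeder cells could remain in a library. Deletion by the Rag1Cre transgene takes place in lymphoid progenitors. The study describes the Erg-deficient cells as pre-proB cells and the control cells as proB cells, so loss of Erg and an earlier stage cannot be told apart here. Animal age was not in the labels, and the methods give one range for all mice of the study. Replicate 2 of Erg KO and replicate 2 of the Erg fl/fl control were male, the other 4 libraries were female, and sex was a term of the model.

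PU.1, the product of Spi1, and Spi-B, the product of Spib, are closely related ETS-family transcription factors that bind the core sequence GGAA and overlap in function in B cells, while PU.1 also sets the balance between myeloid and lymphoid fates by its dose. IRF4 and IRF8 bind DNA weakly alone. PU.1 or Spi-B recruits them to composite elements in which an ETS core stands beside an IRF site, among others in the enhancers of the antibody light chains. IRF4 and IRF8 act at the step from pre-B cell proliferation to light-chain rearrangement. IRF4 later drives plasma cell differentiation while IRF8 is needed for monocytes and dendritic cells. Hi-C counts measure contacts and not expression, so nothing below is a level of any of these transcripts or proteins. Bins of this size do not show the deletion within Erg, and the cell type of a library was not tested from its contacts.

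Spi1 starts at position 91082390 of chromosome 2 (plus strand). Its bin runs from 91000086 to 91099673 and also holds the starts of Psmc3, Rapsn and Slc39a13. Spib starts at 44532071 of chromosome 7 (minus strand) in the bin from 44499820 to 44599823, which also holds, among others, the starts of Mybpc2, Napsa, Nr1h2 and Pold1. Irf4 starts at 30749226 of chromosome 13 (plus strand) in the bin from 30699735 to 30799425. Irf8 starts at 120736358 of chromosome 8 (plus strand) in the bin from 120700164 to 120799637. Both are the only protein-coding start of their bin. Bins are numbered below from the start bin (bin 0) along the chromosome, with negative numbers at lower coordinates whatever the strand. All 4 start bins were rich in G and C, with a GC content of 47.9% at Spi1, 52.2% at Spib, 46.0% at Irf4 and 50.4% at Irf8, against a median of 41.4% over 23644 kept autosomal bins. The GC content of the Spib start bin was higher than in 99.3% of kept bins and that of Irf4, the lowest of the 4, higher than in 83.2%. The windows differed in gene content, with 115 protein-coding starts around Spib, 49 around Spi1, 26 around Irf8 and 13 around Irf4.

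Base composition is a theme of the comparisons below, and the promoters are shown because they differ in it as well (250 bases before to 50 after the start, RefSeq, GRCm38.p6, 5' to 3' on the strand of the gene). Of the 4 members 3 had an entry. Capitals mark the ETS core GGAA and its complement TTCC.
Spib, chr7:44532022-44532321, minus strand: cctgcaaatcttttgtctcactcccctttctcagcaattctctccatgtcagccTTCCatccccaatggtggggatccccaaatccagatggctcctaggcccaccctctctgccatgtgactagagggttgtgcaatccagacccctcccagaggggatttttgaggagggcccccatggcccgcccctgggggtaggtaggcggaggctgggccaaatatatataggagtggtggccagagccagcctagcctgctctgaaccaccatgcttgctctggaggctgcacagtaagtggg
Irf4, chr13:30748983-30749282, plus strand: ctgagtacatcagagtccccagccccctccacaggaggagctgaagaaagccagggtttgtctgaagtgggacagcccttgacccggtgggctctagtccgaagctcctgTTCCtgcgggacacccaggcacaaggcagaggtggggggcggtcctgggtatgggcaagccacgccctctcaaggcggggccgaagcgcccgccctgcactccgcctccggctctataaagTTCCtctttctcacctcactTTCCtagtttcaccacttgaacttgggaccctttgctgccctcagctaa
Irf8, chr8:120736108-120736407, plus strand: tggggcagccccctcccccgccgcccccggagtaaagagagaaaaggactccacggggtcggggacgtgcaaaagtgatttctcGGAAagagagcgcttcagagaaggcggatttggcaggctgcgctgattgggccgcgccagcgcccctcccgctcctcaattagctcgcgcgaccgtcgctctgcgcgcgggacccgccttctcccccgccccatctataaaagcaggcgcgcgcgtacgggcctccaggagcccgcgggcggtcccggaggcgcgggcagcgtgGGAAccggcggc
The Irf8 promoter had a GC content of 70% and 38 CpG, more CpG than 95.05% of 32851 promoters, whereas the Irf4 promoter had 61% and 11 CpG and the Spib promoter 58% and 2 CpG. An ETS core was present once in the Spib promoter, 3 times in Irf4 and 2 times in Irf8, counting both strands, and 95.98% of all promoters of this length held at least 1. An ETS-IRF composite was searched as GGAA followed after 2 bases by GAAA, so that it contains an ETS core. This composite was held by 2.715% of promoters. An interferon-type IRF element was searched as GAAA and GAAA separated by 2 bases (3.443% of promoters). Neither was found in these 3 stretches on either strand. The reverse order, GAAA followed after 2 bases by GGAA, was not searched. The Irf4 stretch holds that order on the complementary strand (printed as TTCCtctttc), and the share of all promoters with it was not counted. A second RefSeq start of Irf8 lies 2281 bases further along the gene, and its promoter had a GC content of 54.67%.

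Libraries held from 29014581 to 68085468 read pairs, with the 2 smallest both in the Erg fl/fl control. Contacts between chromosomes took 32.3% and 34.6% of read pairs in Erg KO, 24.7% and 26.8% in the CreT control and 24.3% and 21.6% in the Erg fl/fl control. Changes followed base composition across the genome. In the fifth of 431631 tested bin pairs with the highest GC content the median log2 fold change (Erg KO over the mean of both controls) was -0.36, and in the fifth with the lowest it was 0.48, against -0.04 and 0.03 once offsets for GC content were added. The main results are therefore given with and without a correction. The GC correction removed the trend over GC content, from counts by offsets or from the scores themselves. The coverage correction scaled contacts by the coverage of their bins and fitted no trend. The origin of the trend was not tested.

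The first comparison asked whether the start bins contacted the bins around them less or more often in Erg KO. Of 80 tested pairs of a start bin with a bin of its window, 29 passed as lower in Erg KO than in the mean of both controls, and 0 as higher. The edgeR quasi-likelihood test was used, with an adjusted p under 0.05 over all 431631 pairs, and at an unadjusted p under 0.05 2 pairs were higher. Over all tested pairs 6.26% fell and 6.49% rose. By gene, 11 of 21 pairs fell at Spib, 11 of 21 at Irf8, 6 of 17 at Spi1 and 1 of 21 at Irf4, with median log2 fold changes of -0.67 at Spib, -0.63 at Irf8, -0.34 at Spi1 and -0.11 at Irf4. All 29 pairs had the same sign against each control, and in 23 of them both Erg KO libraries lay below all 4 controls. The 29 were selected by their difference from these same controls, which favours both counts. Neither share was counted over all pairs. When the CreT control was set against the Erg fl/fl control 0 of the 80 pairs passed (0.000232% of all pairs were lower), with 6 lower and 3 higher at an unadjusted p under 0.05. Without Erg KO replicate 1, which left 1 Erg KO library assumed to vary like the others, 0 of the 80 and 0 of all pairs passed, while the median log2 fold change of the 80 pairs was -0.49, against -0.41 with all libraries. When Erg KO replicate 2 was left out 1 of the 80 passed at a median of -0.36, with 1065 pairs lower and 1901 higher among all, and 17 of the 80 passed without Erg fl/fl control replicate 2. Calls over all pairs, with and without GC offsets, also changed with the library left out. DESeq2 called 3 of the 34 pairs for which it gave an adjusted p, all 3 as lower. Over all 80160 pairs with an adjusted p it called 691 as lower and 4106 as higher. With offsets for GC content 6 pairs fell and 1 rose (0.885% fell and 0.594% rose over all pairs), and these 7 also passed with offsets for bin coverage, which called 13 in all (1.82% fell and 0.652% rose over all pairs). Without 1 of the 6 libraries the count with GC offsets ran from 1 (each Erg KO library and Erg fl/fl control replicate 2) to 9. The same held over all pairs within the windows, of which 270 of 800 fell and 2 rose, against 49 and 3 with GC offsets.

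**Figure D1:**
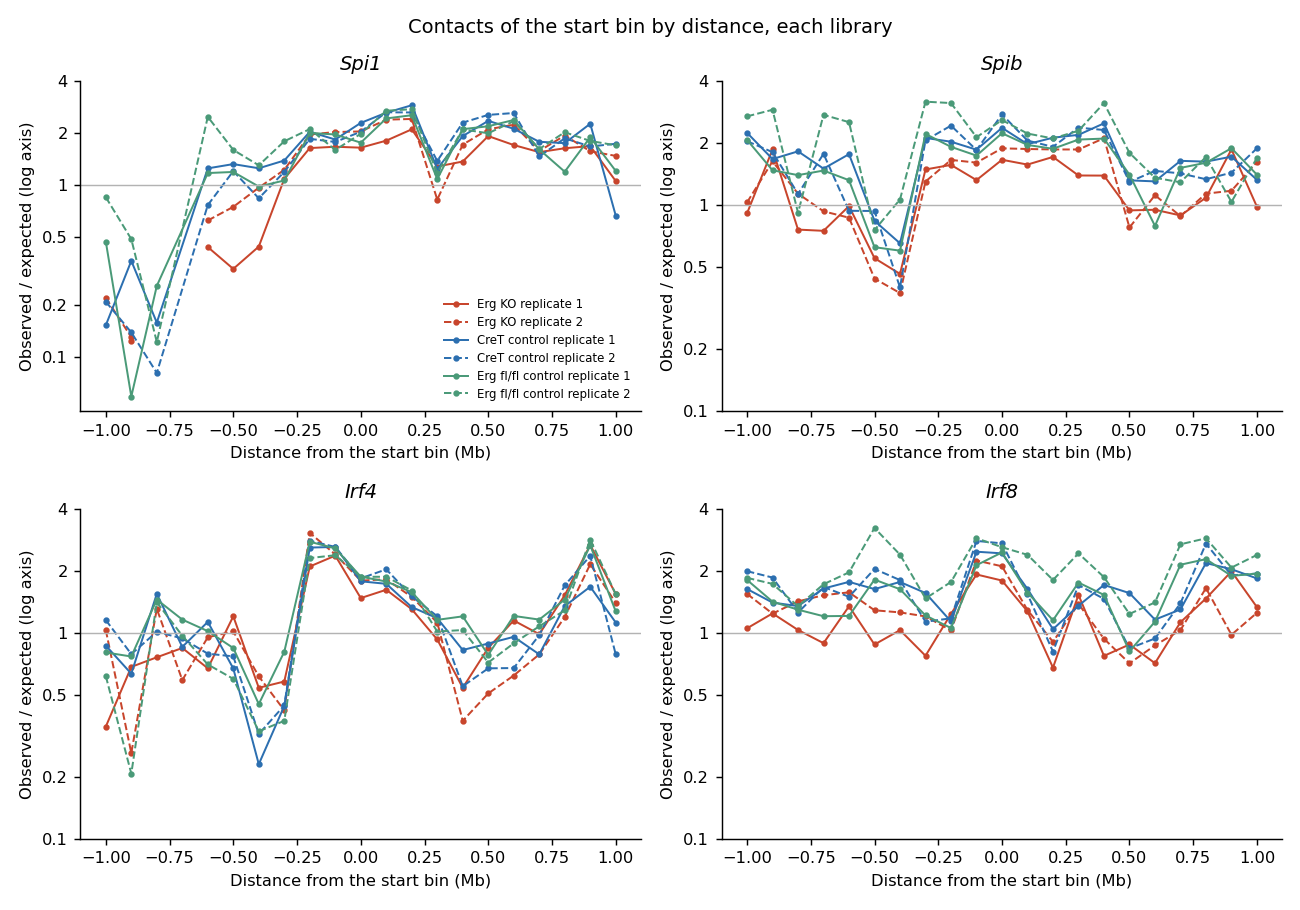
Observed over expected contacts (y axis, log scale) of the start bin with each kept bin of its window, by distance from the start bin (x axis, Mb), for each of the 6 libraries. Expected is the mean count at that distance on all autosomes of the library, and counts of 0 are not drawn. Contacts of the Spi1 start bin dropped in all libraries beyond bin -6, and both Erg KO lines lay lowest at bins -6 and -5, while the lines of Irf4 overlapped over most of the window.

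At Spi1 the decreases were largest toward lower coordinates. Contact of the start bin with bin -6, which lies at the edge of a cluster of olfactory receptor genes, had normalised counts (read pairs scaled by the offsets) of 11.6 and 16.4 in Erg KO, 34.2 and 20.7 in the CreT control and 32.0 and 70.9 in the Erg fl/fl control. On the log2 scale the fold change was -1.69 ± 0.31 (SE, adjusted p = 1.71e-05) and -1.40 ± 0.30 with GC offsets (adjusted p = 0.00325). Both Erg KO libraries were lower than every control, although the nearest control, CreT control replicate 2, was close to them. Contact with bin -5, where Ptprj starts, a receptor-type tyrosine phosphatase (CD148), had 10.5 and 23.97 in Erg KO, 43.6 and 39.6 in the CreT control and 39.1 and 54.0 in the Erg fl/fl control. That was a log2 fold change of -1.55 ± 0.28 (adjusted p = 1.77e-05) and of -1.24 with GC offsets (adjusted p = 0.0047). The groups did not overlap, and the Erg KO libraries differed more from each other than the controls did in proportion. On the other side, contacts with bin 1 (Madd and Mybpc3), bin 2 (Nr1h3, the nuclear receptor LXR alpha) and bin 4 (Lrp4) fell by 0.37, 0.41 and 0.65 on the log2 scale. None of these 3 passed with GC offsets, which left -0.22, -0.17 and -0.35. Contact of the Spi1 start bin with itself was 378 and 443 in Erg KO, 472 and 411 in the CreT control and 372 and 414 in the Erg fl/fl control, which overlapped (log2 difference -0.07 ± 0.07, adjusted p = 0.58).

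The Spib start bin lost contacts on both sides. Bin -3, at the end of the kallikrein cluster (Klk1 and its relatives, which encode serine proteases), gave normalised counts of 74.5 and 65.5 in Erg KO, 116 and 109 in the CreT control and 121 and 190 in the Erg fl/fl control. Its log2 fold change was -0.98 ± 0.15 (adjusted p = 2.56e-07), and -0.55 ± 0.15 with GC offsets (adjusted p = 0.0282). All controls lay above both Erg KO libraries, and Erg fl/fl control replicate 2 stood above the other 3 controls. Contact with bin -7, inside the same cluster (Klk4 to Klk7), was 16.8 and 20.7 in Erg KO, 34.9 and 40.3 in the CreT control and 34.0 and 68.9 in the Erg fl/fl control. Its log2 fold change was -1.43, and -1.03 with GC offsets (adjusted p = 0.0245). Bin -10, which holds Cd33, a sialic acid-binding receptor of myeloid cells, was chosen after its values were seen, as one of the pairs that passed with GC offsets (log2 fold change -1.41, and -1.03 with the offsets, adjusted p = 0.0487). Contacts with bin -2 (-0.76), with the start bin itself (-0.41) and with bin 4 (-0.88) also fell, the last of these holding the start of Irf3, the factor that induces type I interferon after viral sensing. With GC offsets they were -0.35, -0.21 and -0.41 and did not pass, whereas all 3 passed with coverage offsets.

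The Irf4 start bin was the exception, with 1 decrease. Contact with bin 4, which holds no protein-coding start, was 22.1 and 15.3 in Erg KO, 34.2 and 23.1 in the CreT control and 49.5 and 41.4 in the Erg fl/fl control, with Erg KO replicate 1 just below the lowest control. Its log2 fold change was -0.86 ± 0.28 (adjusted p = 0.0261), and -0.70 with GC offsets (adjusted p = 0.198). Contact with bin -5 went the other way, with 39.0 and 32.8 in Erg KO, 22.3 and 25.6 in the CreT control and 27.9 and 19.8 in the Erg fl/fl control. Both Erg KO libraries were above all controls. This pair, named after its values were seen, had a log2 fold change of 0.66 ± 0.26 (adjusted p = 0.0724), of 0.89 with GC offsets (adjusted p = 0.0418) and of 0.98 with coverage offsets (adjusted p = 0.0196). The next bin, -4, where Agtr1a (an angiotensin receptor) starts, passed with coverage offsets alone (adjusted p = 0.0343). Contacts with the nearest neighbours of Irf4, Dusp22 (a dual-specificity phosphatase, bin -1) and Exoc2 (a subunit of the exocyst, bin 2), differed by -0.06 and -0.23 and did not pass.

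At Irf8 the decreases lay on both sides. Contact with bin -5, which holds the start of Gse1, was 27.5 and 40.1 in Erg KO, 54.1 and 65.9 in the CreT control and 60.2 and 118 in the Erg fl/fl control. Its fold change was -1.33 ± 0.21 on the log2 scale (adjusted p = 8.23e-07). Erg KO lay below every control, and the decrease remained past the threshold with GC offsets (-0.86 ± 0.21, adjusted p = 0.0114). Contact with bin 4, where the forkhead genes Foxc2 and Foxl1 start, was 30.8 and 37.1 in Erg KO, 70.7 and 59.8 in the CreT control and 63.2 and 80.6 in the Erg fl/fl control. Its log2 fold change was -1.09, and -0.66 with GC offsets (adjusted p = 0.0814). Bins -4, -1 and 1 fell by 0.97, 0.37 and 0.53 and did not pass with GC offsets (-0.49, -0.14 and -0.22). The bin before Irf8, bin -1, holds Cox4i1, a subunit of cytochrome c oxidase, and Emc8, a subunit of the ER membrane protein complex.

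**Figure D2:**
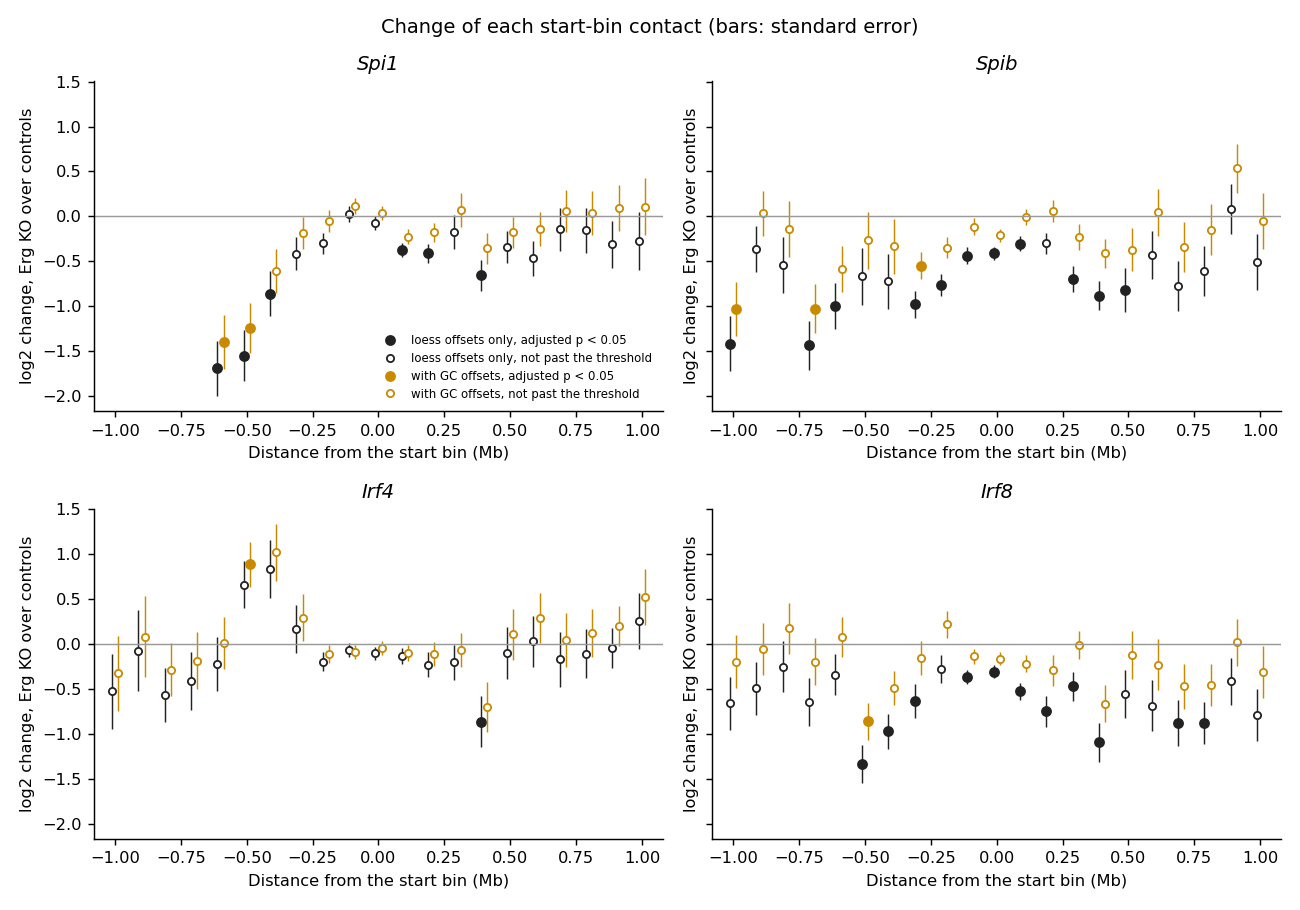
Log2 fold change, Erg KO over the controls (y axis), for each tested pair of the start bin with a bin of its window, by distance (x axis, Mb), with the standard error as a bar. Black points have loess offsets alone and ochre points offsets for GC content as well, filled where the adjusted p was under 0.05. Filled black points number 29 and filled ochre points 7, and ochre points lie closer to 0 than black ones over most of the Spib and Irf8 windows.

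A second measure was the number of local contacts of each bin, with bins 2 to 10 bins away, given here as log2 over the mean bin of the library. They fell in 60 of 83 kept window bins and rose in 0 (edgeR with TMM scaling, 32.3% of 23642 bins fell and 33.3% rose in the genome, and 0 window bins had a higher value at an unadjusted p under 0.05). The windows divided, since 21 of 21 bins fell at Spib, 21 of 21 at Irf8, 17 of 20 at Spi1 and 1 of 21 at Irf4. Nearby bins share part of these contacts, so bins of a window are not independent of each other. The Spib start bin was at 0.314 and 0.427 in Erg KO, 0.839 and 0.810 in the CreT control and 0.712 and 1.116 in the Erg fl/fl control. Its difference was -0.64 ± 0.07 (adjusted p = 3.99e-06) and -0.02 with GC offsets (adjusted p = 0.793). The Irf8 start bin was at 0.0867 and 0.220 in Erg KO, 0.569 and 0.518 in the CreT control and 0.520 and 1.00 in the Erg fl/fl control. It differed by -0.66 ± 0.08 (adjusted p = 5.38e-06, and -0.12 with GC offsets, adjusted p = 0.148). At both genes the Erg KO libraries were below all controls as measured, and the difference did not pass with GC offsets. The Spi1 start bin had 0.282 and 0.504 in Erg KO, 0.711 and 0.663 in the CreT control and 0.596 and 0.799 in the Erg fl/fl control (-0.43 ± 0.06, and -0.02 with GC offsets, adjusted p = 0.822). The Irf4 start bin, at 0.162 and 0.270 in Erg KO, 0.210 and 0.260 in the CreT control and 0.431 and 0.185 in the Erg fl/fl control, showed groups that overlapped (-0.12 ± 0.07, adjusted p = 0.174), and its difference was 0.17 with GC offsets (adjusted p = 0.0753). With GC offsets 24 window bins fell and 5 rose, against 15.3% and 15.2% of all bins, and with coverage offsets 55 fell and 5 rose, against 22.2% and 21.6%. With coverage offsets the start bins of Spib, Irf8 and Spi1 still passed (-0.54, -0.47 and -0.28, adjusted p = 0.000443, 0.000932 and 0.00961) and that of Irf4 did not (0.068). Of these 24 decreases 12 were in the Spi1 window, 7 at Spib, 4 at Irf8 and 1 at Irf4, with the largest change in that window at bin -6 (-0.68, and -0.51 with GC offsets). The largest changes in the other windows were at bin 10 of Spib (-0.79), bin 2 of Irf8 (-0.88) and bin -2 of Irf4 (-0.16, where Uqcrfs1 of the respiratory chain starts).

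Insulation was compared next. The score is the log2 of the mean contact between the 5 bins before and the 5 bins after a bin, over the mean of the chromosome, so that a lower score means fewer contacts across the bin. It fell in 55 of 83 window bins and rose in 1 (limma, 26.6% of 23326 bins fell and 39.1% rose in the genome). In the Irf8 window 21 of 21 bins fell, against 18 of 21 at Spib, 13 of 20 at Spi1 and 3 of 21 at Irf4. The Irf8 start bin had the largest decrease of its window and stood at -0.233 and -0.132 in Erg KO, 0.564 and 0.398 in the CreT control and 0.498 and 1.04 in the Erg fl/fl control. It differed by -0.89 ± 0.10 (adjusted p = 0.000576). With the GC trend removed in each library it was -0.489 and -0.517 in Erg KO, -0.162 and -0.300 in the CreT control and -0.155 and 0.0467 in the Erg fl/fl control. Both Erg KO libraries remained below all controls, with a difference of -0.38 ± 0.08 (adjusted p = 0.00331), which made Irf8 the one start bin of the 4 whose insulation passed with the GC trend removed.

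The other start bins did not pass with the GC trend removed. Divided by bin coverage instead, 3 start bins passed (-0.71 at Irf8, -0.55 at Spib and -0.38 at Spi1, adjusted p = 0.0106, 0.00752 and 0.0108, and -0.075 at Irf4, adjusted p = 0.48). Spib was at -0.417 and -0.105 in Erg KO, 0.347 and 0.210 in the CreT control and 0.178 and 0.504 in the Erg fl/fl control (-0.65 ± 0.07, adjusted p = 0.000557), and differed by -0.08 once the GC trend was removed (adjusted p = 0.39). Spi1 was at 0.0136 and 0.414 in Erg KO, 0.554 and 0.522 in the CreT control and 0.597 and 0.777 in the Erg fl/fl control (-0.47 ± 0.08, adjusted p = 0.00128, and -0.07 with the GC trend removed, adjusted p = 0.53). Irf4 was at 0.544 and 0.538 in Erg KO, 0.680 and 0.629 in the CreT control and 0.773 and 0.764 in the Erg fl/fl control. Irf4 values did not overlap between Erg KO and controls, but the difference of -0.17 ± 0.07 did not pass (adjusted p = 0.0589) and had the other sign with the GC trend removed (0.14 ± 0.07, adjusted p = 0.118).

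**Figure D3:**
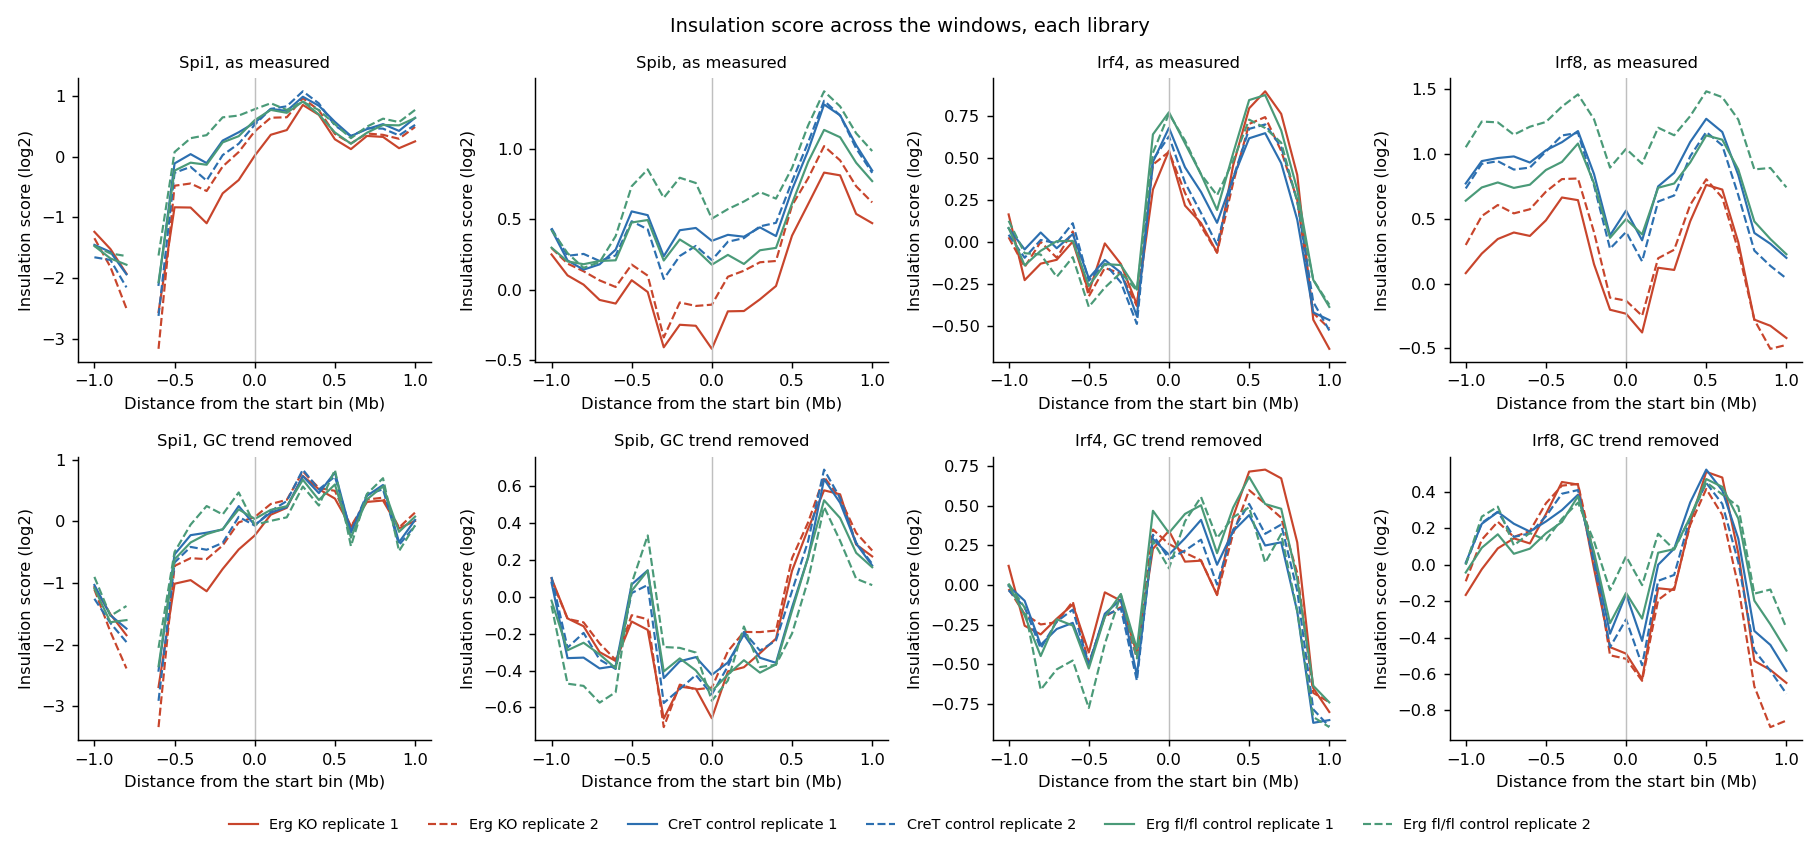
Insulation score (y axis, log2 over the mean of the chromosome) of each kept bin by distance from the start bin (x axis, Mb), for each library, as measured (upper row) and with the trend over GC content removed (lower row). The Erg KO lines lay below the controls across the whole Irf8 window as measured, and after the correction they lay below the controls at the Irf8 start bin and at bin -3 of the Spi1 window.

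With the GC trend removed 19 window bins fell and 8 rose, against 12.8% and 31.3% of all bins, and divided by bin coverage 42 fell and 2 rose, against 15.4% and 10.7%. The sum of 27 with the GC trend removed was 17 when CreT control replicate 1 was left out and 47 when replicate 1 of the Erg fl/fl control was. Of the 19 that fell, 9 were in the Spi1 window, and 6 of these formed a run from bin -6 to bin -1. Scores of neighbouring bins share many of their contacts, so the bins of such a run are not separate results. The largest change in that window was at bin -3, with the starts of Fnbp4 and Agbl2, at -1.10 and -0.566 in Erg KO, -0.108 and -0.396 in the CreT control and -0.135 and 0.351 in the Erg fl/fl control. That difference was -0.89 ± 0.09 (adjusted p = 0.000529) and -0.85 ± 0.09 with the GC trend removed (adjusted p = 0.00026), so it was about as large after the correction as before it. The run ends at the lowest score of the window in controls, bin -6, where the score was -2.55 and -3.16 in Erg KO, -2.11 and -2.62 in the CreT control and -2.06 and -1.63 in the Erg fl/fl control. Erg KO replicate 1 was within the range of the controls (-0.73 ± 0.21, adjusted p = 0.0159, and -0.54 with the GC trend removed, adjusted p = 0.0291). Bin -6 had a lower control score than all but 0.11% of bins, and divided by bin coverage it differed by -0.73 (adjusted p = 0.0476). The lowest control score on the other side of Spi1 was at bin 6 as measured, and at bin 9 with the GC trend removed. The control score of bin 6 was above 69.7% of bins as measured, 45.9% with the GC trend removed and 45.3% divided by bin coverage. At bin 6 the difference was -0.15 (adjusted p = 0.0816), 0.18 with the GC trend removed (adjusted p = 0.0524) and -0.0039 divided by bin coverage.

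At Spib the lowest control scores on either side were at bins -8 and 1, and at Irf8 at bins -1 and 10. As measured, the control scores of these bins were above 65.2% to 77.0% of bins. They were above 24.9% to 41.0% of bins with the GC trend removed and above 27.0% to 44.8% divided by bin coverage. With the GC trend removed the lowest bin below Spib was -3 and not -8. Bin 1 of Spib fell by 0.49, and the difference was 0.04 with the GC trend removed (adjusted p = 0.637) and -0.39 divided by bin coverage (adjusted p = 0.0152). At Irf8 bin -1 fell by 0.71 and bin 10 by 0.81. With the GC trend removed they differed by -0.17 (adjusted p = 0.0859) and -0.21 (adjusted p = 0.0581), and divided by bin coverage by -0.48 (adjusted p = 0.0217) and -0.59 (adjusted p = 0.0282), so that these 3 bins passed with one correction and not with the other. On either side of Irf4 the lowest scores as measured were at bins -2 and 10, which differed by 0.00065 and -0.15 and did not pass. Control scores there were above 42.3% and 39.6% of bins as measured, and each above 11.5% divided by bin coverage. With the GC trend removed they were above 26.3% and 10.5%, and the lowest bin below Irf4 was then -5. The largest changes that passed in the other windows were at bin -3 of Spib (-0.73, and -0.27 with the GC trend removed, adjusted p = 0.0144) and at bin 1 of Irf4 (-0.25, and -0.17 with the GC trend removed, adjusted p = 0.0722).

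Compartment scores, which place each bin on the axis that separates gene-rich open chromatin (positive) from gene-poor closed chromatin (negative), were nearly the same in all libraries at the 4 start bins. They lay between 1.28 and 1.498 SD units, and differences between Erg KO and both controls were 0.04 ± 0.03 at Spi1, 0.06 ± 0.03 at Spib, 0.11 ± 0.03 at Irf4 and -0.0042 ± 0.02 at Irf8 (limma, adjusted p = 0.317, 0.258, 0.102 and 0.916). None of the 4 passed, and 1, Irf4, had an unadjusted p under 0.05. Over the windows 1 bin fell and 1 rose (2.86% and 1.9% of all bins). The bin that fell was bin -9 of Spi1, in the olfactory receptor cluster, with -0.886 and -0.818 in Erg KO, -0.619 and -0.626 in the CreT control and -0.657 and -0.642 in the Erg fl/fl control. Bin -4 of Irf4, the bin of Agtr1a, was the one that rose, with 0.667 and 0.468 in Erg KO, 0.395 and 0.346 in the CreT control and 0.485 and 0.347 in the Erg fl/fl control, where Erg KO replicate 2 was below 1 control. Their adjusted p-values, 0.0418 and 0.0495, were close to the threshold. Against either control alone 0 bins of the genome passed, and without 1 of the libraries from 0 to 17 window bins passed. With the GC trend removed 1 window bin fell and 2 rose (3.11% and 2.23% of all bins).

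**Figure D4:**
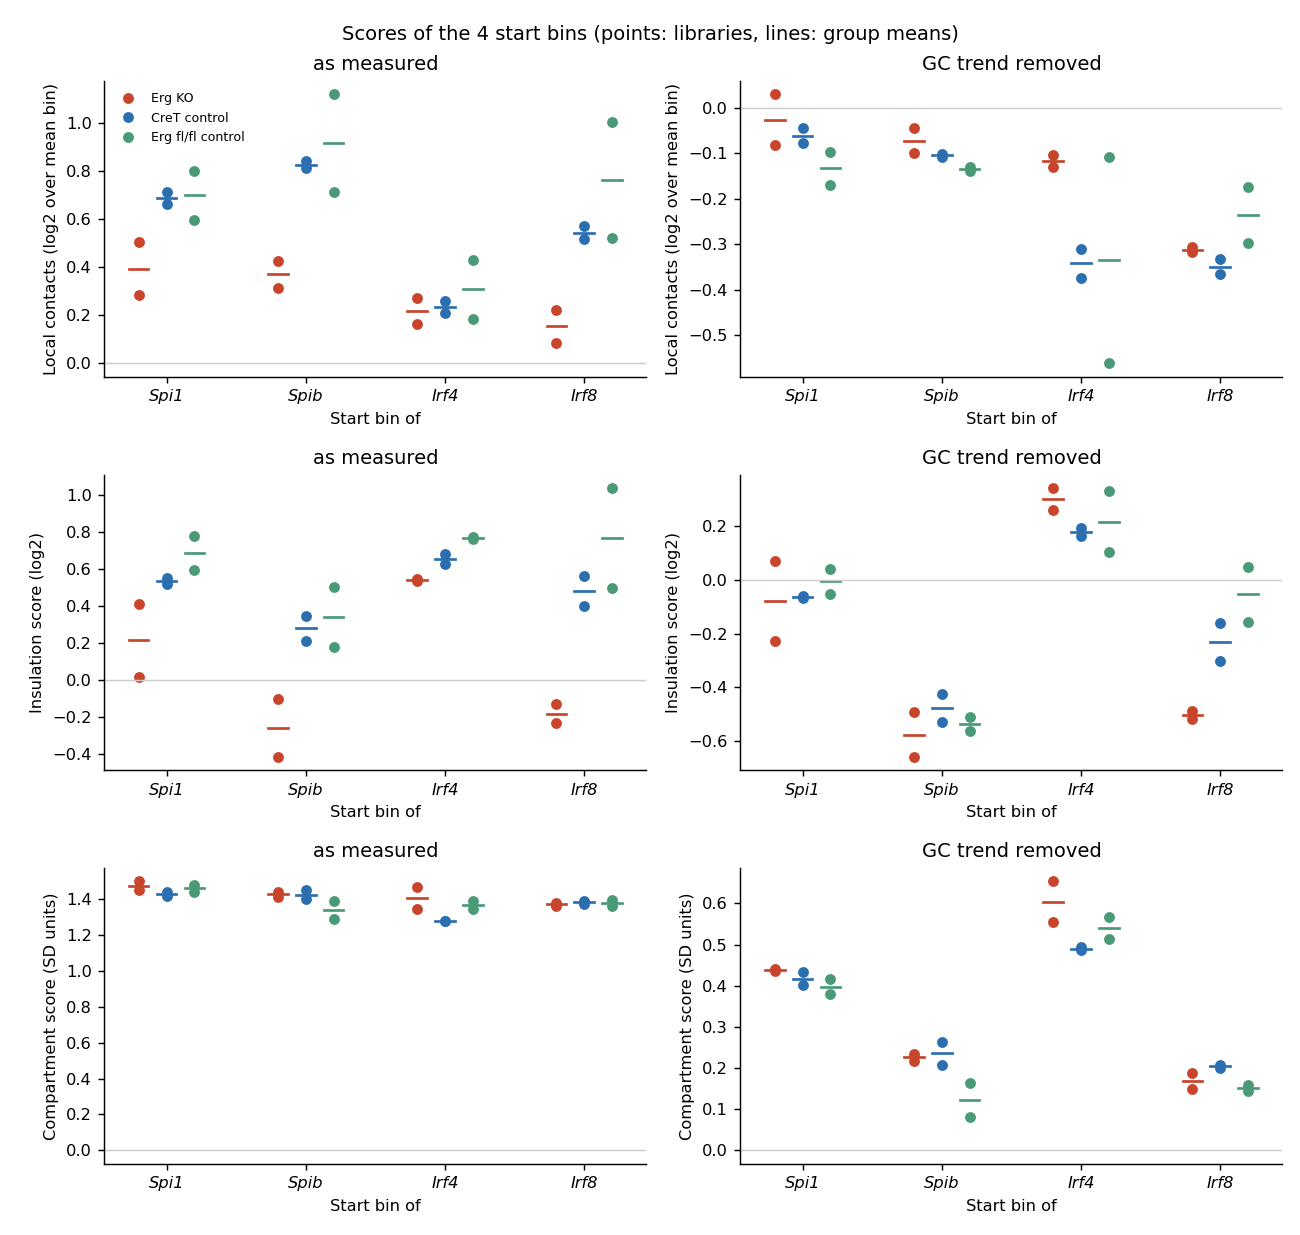
Local contacts (top), insulation score (middle) and compartment score (bottom) of the 4 start bins, as measured (left) and with the trend over GC content removed (right), with libraries as points and group means as lines. For local contacts the trend drawn was a cubic polynomial, whereas their tests in the text used offsets for GC content. As measured both Erg KO libraries lay below all controls in local contacts and insulation at Spi1, Spib and Irf8, and with the trend removed the clear separation that remained was in the insulation score of Irf8.

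Contacts of the start bins were also summed by distance and set against the mean of all kept bins of the library, as log2 of observed over expected. In 15 of 24 comparisons (6 distance classes of 4 genes) both Erg KO libraries lay below all 4 controls, and in 0 above. Over all kept bins and the 6 classes, 22.7% of comparisons were below all controls and 31.8% above. In 13 of the 24 the exact permutation test over 15 splits, two-sided, gave 0.0667, the smallest p that 2 against 4 libraries allow, and the smallest value adjusted over the 24 was 0.123. At Spib 5 of 6 classes did so, with -0.55 at 0.5 to 1 Mb, where log2 observed over expected averaged 0.133 ± 0.042 in Erg KO (SD, n = 2) and 0.682 ± 0.172 in controls (SD, n = 4). At Irf8 the same class differed by -0.45, and contacts with other chromosomes averaged 0.645 ± 0.060 in Erg KO and 0.988 ± 0.075 in controls, a difference of -0.34. With the GC trend removed that difference was -0.15, with both Erg KO libraries below all controls, whereas at 0.5 to 1 Mb it was 0.065. At Spi1 the largest difference was at 1 to 10 Mb, with -1.42 ± 0.027 in Erg KO and -0.805 ± 0.458 in controls (exact p = 0.2), lower than at all but 0.173% of bins. It was -0.41 with the GC trend removed, but the Erg fl/fl control averaged -0.506 and the CreT control -1.10, so that the controls differed from each other by as much. Irf4 differed by -0.23 at 1 to 10 Mb. After removal of the GC trend 3 of the 24 comparisons had both Erg KO libraries below all controls and 5 above (9.89% and 24.4% over all bins). After division by bin coverage 5 were below and 2 above (16.3% and 17.5% over all bins). Coverage was here the total contacts of the bin, which include the contacts compared.

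**Figure D5:**
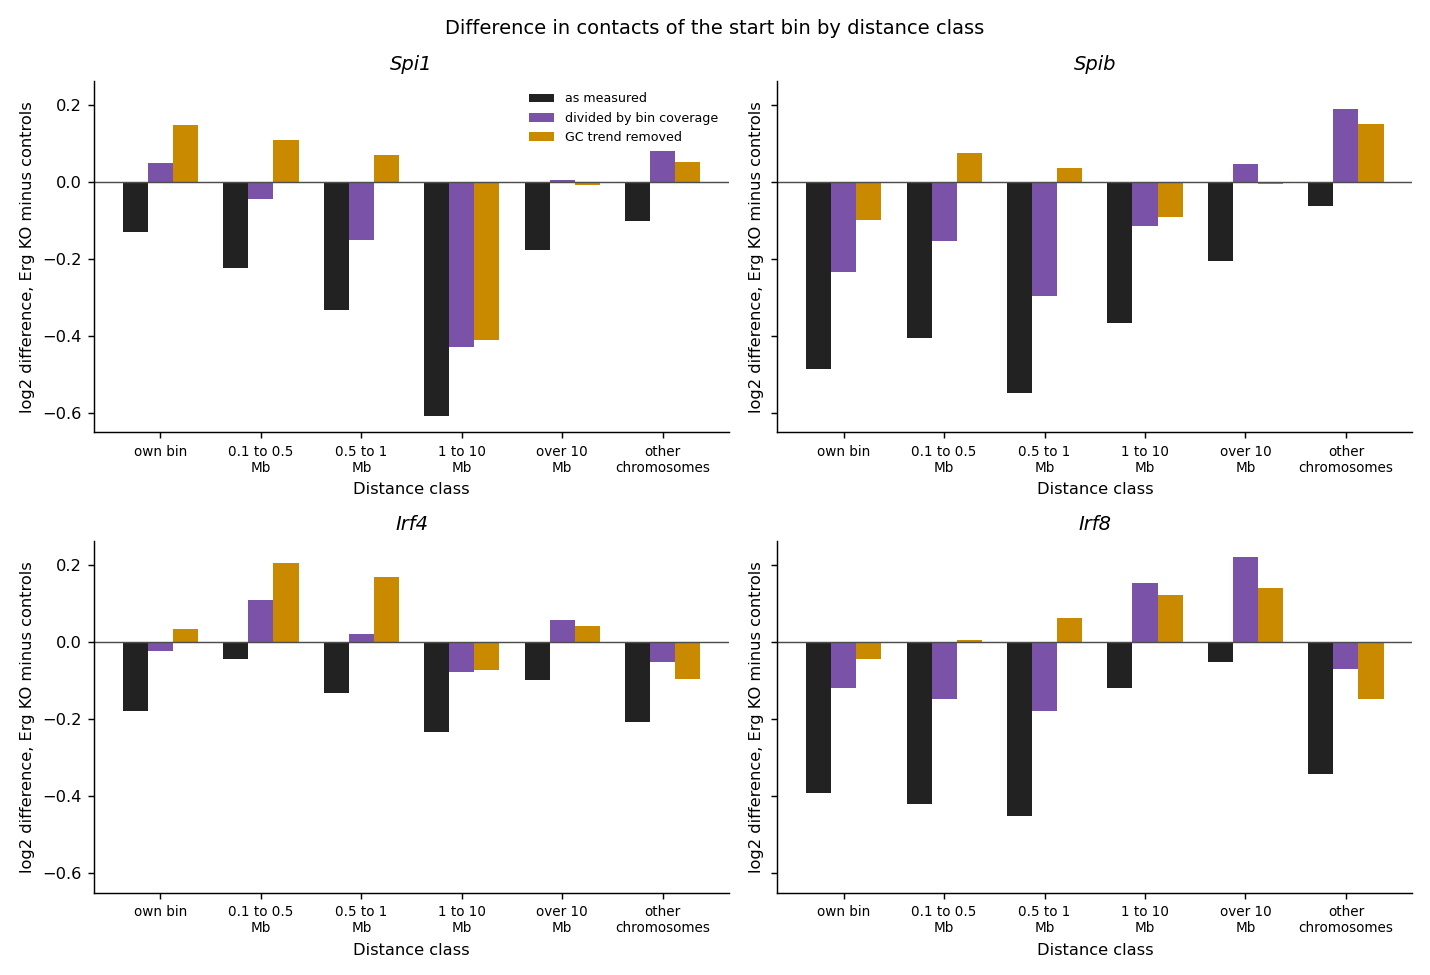
Difference in log2 observed over expected contacts of the start bin, Erg KO minus controls (y axis, bars from 0), by distance class (x axis), as measured (black), divided by bin coverage (purple) and with the trend over GC content removed (ochre). All 24 black bars are below 0, and after either correction bars of both signs are present, with -0.61 at 1 to 10 Mb of Spi1 as the largest black bar.

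Contacts between the 4 windows, which lie on different chromosomes, were counted against those expected from the contacts of their bins with other chromosomes. The windows of Spi1 and Spib met at 1.72 and 1.83 times the expected count in Erg KO, 1.36 and 2.17 in the CreT control and 1.65 and 1.25 in the Erg fl/fl control, from 17 to 104 read pairs per library. The windows of Spi1 and Irf8 met at 1.42 and 1.42 times that in Erg KO, 1.76 and 1.78 in the CreT control and 1.58 and 1.32 in the Erg fl/fl control. In 0 of the 6 pairs of windows did Erg KO stand apart from the controls, and log2 differences ran from -0.22 (Spib with Irf4) to 0.23 (Spib with Irf8). These ratios rest on 9 to 104 read pairs per library and pair of windows.

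Among other genes of the pathway, the 7 relatives Spic, Irf1, Irf2, Irf3, Irf5, Irf7 and Irf9 had local contacts that fell in 6 of 7 bins and insulation that fell in 5 of 7, with 0 rising in either and a median difference of -0.34 in both. With the GC correction 0 fell in local contacts and 1 rose in insulation. The shares of all bins to read these list counts against were 32.3% lower and 33.3% higher in local contacts and 26.6% and 39.1% in insulation, and after the GC correction 15.3% and 15.2%, and 12.8% and 31.3%. Of 16 bins of regulators and protein partners of PU.1, IRF4 or IRF8, local contacts fell in 12 and insulation in 9, with 0 rising in either. After the correction 3 and 2 fell, near the shares of all bins. In each measure 2 then rose, with median differences of 0.039 in local contacts and 0.024 in insulation. Of 29 bins of 30 known targets, local contacts fell in 21 and rose in 1, and insulation fell in 20 and rose in 2. With the GC correction 9 fell in each measure, and 1 rose in local contacts and 4 in insulation. The Irf3 bin was also counted in the Spib window, and some list bins adjoin each other, such as those of Ets1 and Fli1. The median GC content of these lists, from 44.8% to 46.6%, was above that of all bins. The largest changes among them were decreases in insulation at Csf3r (the G-CSF receptor, -0.93), Ciita (the master regulator of MHC class II genes, -0.74), Pax5 (the factor of B-lineage commitment, -0.72), Cd14 (the co-receptor for lipopolysaccharide, -0.71) and the bin shared by Igll1 and Vpreb1 (the surrogate light chain, -0.66). Local contacts fell by 0.71 at Tcf3 (E2A, which heads the B-lineage programme), by 0.62 at Ikzf3 (Aiolos, an Ikaros-family zinc finger), by 0.61 at Cd79b (a signalling chain of the B-cell receptor) and by 0.61 at Irf3.

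Among these the Pax5 bin changed least with the correction. Its insulation was 0.171 and 0.329 in Erg KO, 0.852 and 0.670 in the CreT control and 0.879 and 1.23 in the Erg fl/fl control, and the difference of -0.72 ± 0.09 was -0.71 ± 0.08 with the GC trend removed (adjusted p = 0.000291). The bins of Csf3r, Igll1 with Vpreb1, Cd14, Ciita and Ikzf3 also passed in insulation after the correction, at -0.54, -0.51, -0.46, -0.39 and -0.27, whereas Tcf3, Cd79b and Irf3 did not, at -0.06, 0.19 and 0.12. In compartment score 2 genes of these lists fell, Fli1, an ETS factor close to Erg (-0.23, adjusted p = 0.0496), and Flt3, the receptor of FL (-0.21, adjusted p = 0.0495), both named after their values were seen, and neither passed with the GC trend removed. The one bin that rose in local contacts was that of Tlr4 (0.34, and 0.06 with GC offsets), which was also named after its values were seen.

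Bins of marker genes of other cells were set beside these values. Of 10 stromal gene bins local contacts fell in 2 and rose in 4, and insulation fell in 2 and rose in 4, with a compartment score that rose in 1. Of 7 myeloid gene bins local contacts and insulation fell in 7, and of 5 B-lineage bins both fell in 4. Over all bins 32.3% fell and 33.3% rose in local contacts, 26.6% and 39.1% in insulation and 2.86% and 1.9% in compartment score. These markers are not apart from the target list, which holds 3 of the 7 myeloid bins (Itgam, Lyz2 and Csf1r) and 4 of the 5 B-lineage bins (Ebf1, Pax5, Cd79a, and Igll1 with Vpreb1). After the GC correction the insulation of 1 stromal bin fell and that of 5 rose, that of 4 myeloid bins fell and that of 0 rose, and that of 2 B-lineage bins fell and that of 1 rose, against 12.8% and 31.3% of all bins. The part of other cell types in the members' results was not tested.

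The bins most like the members were found from 18 values (local contacts, insulation and compartment score in 6 libraries, each scaled to its SD), as a distance over 9669 bins with a protein-coding start. The nearest to Spi1 were those of Azin2 (0.395), Ywhaz (0.459) and Ythdf2 (0.473), and the nearest to Spib those of Ripor3 (0.356), Slc25a38 (0.389) and Hemk1 (0.474). Irf4 had B3galnt1 (0.558), Gch1 (0.562) and Azin1 (0.565), and Irf8 had Hdgf (0.454), Eln (0.476) and Chka (0.517). Median distances to all bins were 3.17 to 3.37. Among the members Spi1 and Irf8 were closest (1.17) and Spib and Irf4 farthest apart (2.77), all below these medians. The nearest bins were picked as the closest of 9669, so their distances cannot be weighed against those between members.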

How the data were processed

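Hi-C libraries of 2 samples each from Erg KO, CreT control and Erg fl/fl control B-cell progenitors were used. The authors aligned reads to mm10 with diffHic v1.14.0 (cutadapt and bowtie2), removed duplicates and dangling ends, and deposited counts of read pairs for each pair of bins, unnormalised. Of 24067 autosomal bins, 23644 with 0.3 to 3 times the median coverage were kept. Starts came from the GENCODE annotation of mm10. The members and gene lists were chosen with earlier results of these data known. A few genes are not reported here.

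Bin pairs with a mean abundance 5 times that of contacts between chromosomes, and at least 10 read pairs, were tested with edgeR 4.0.16 (quasi-likelihood, R 4.3.3) using loess offsets, local contacts with edgeR and TMM scaling, and insulation and compartment scores with limma 3.58.1. Models held group and sex, and Erg KO was set against the mean of both controls. Benjamini-Hochberg adjustment was over all bins or pairs, with a threshold of 0.05. The GC correction of insulation scores, compartment scores and distance classes used a cubic polynomial. In the edgeR tests, counts of bin pairs and local contacts took offsets for GC content instead. Coverage was contacts beyond 2 Mb. Distance classes used exact permutation over 15 splits. Alternatives were TMM, DESeq2 1.42.0, other filters, thinning, no sex term and leaving out each library. The 5 strongest pairs called at each member were named, with the largest change per window and 10 genes of the lists. Labels call the samples biological duplicates. The edgeR and limma p-values rest on the spread left between libraries after group and sex, moderated over all pairs or bins. Exact p-values rest on the 15 splits.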

Additional observations from a re-analysis of the deposited data

Results flagged for a closer look

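Of 58 results looked at among the 4 control libraries, 6 had 1 library far from the other 3, by a criterion that chance meets in about 1 of 20 groups. In 5 of them it was Erg fl/fl control replicate 2, the smallest library, which was highest. The contact of the Spib start bin with bin -3 was 189.8 normalised counts there, against 108.8 to 121.2 in the other controls. At Irf8 the contact with bin 1 was 363.1 against 225.8 to 244.9, the contact with bin -4 was 107.0 against 67.6 to 73.5, and local contacts of the start bin were 1.00 against 0.518 to 0.569. The Spi1 start bin had a log2 observed over expected contact of 0.651 at 0.5 to 1 Mb, against 0.280 to 0.320. In the sixth, contact between the windows of Irf4 and Irf8 was 1.15 times the expected count in Erg fl/fl control replicate 1, against 0.772 to 0.825 in the other controls.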

How the results depend on the processing

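The 29 start-bin pairs that passed became 22 with TMM scaling, 19 at equal depth, 13 with coverage offsets, 7 with GC offsets and 3 with DESeq2, and 0 to 33 when 1 library was left out. With GC offsets that range was 1 to 9. Local contacts passed in 60 window bins, in 29 with GC offsets, and in 56 to 62 without 1 library (20 to 38 with GC offsets). Insulation passed in 56, in 27 with the GC trend removed, and in 49 to 62 without 1 library (17 to 47 with the trend removed). The 2 compartment calls became 0 without the sex term, with coverage division and with the component chosen in each library, and 0 to 17 without 1 library (0 to 20 with the GC trend removed). The cause was not tested.

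The check of replicate numbers as pairs, which asked for a correlation of deviations over 0.1 in every pair of groups, was not met. For Erg KO with the CreT control, Erg KO with the Erg fl/fl control and the CreT with the Erg fl/fl control it was -0.0065, 0.073 and -0.072 over bin pairs, -0.17, 0.50 and -0.36 in local contacts, -0.19, 0.50 and -0.48 in insulation and -0.064, 0.21 and -0.40 in compartment score. The numbers were not taken as pairs, although same-numbered Erg KO and Erg fl/fl control libraries, which are of the same sex, deviated together by bin. With a replicate block in place of sex, 25 start-bin pairs, 56 window bins in local contacts, 45 in insulation and 0 in compartment score passed.

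At Irf4 the difference in local contacts was 0.17 with GC offsets, 0.068 with coverage offsets and from -0.23 to 0.072 without 1 library, insulation was 0.14 with the GC trend removed, and the compartment score was -1.17 where the component was chosen in each library, which picked another component on that chromosome in Erg KO replicate 1. At Irf8 the compartment difference ran from -0.011 to 0.0069 (without Erg KO replicate 1).

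By distance, 15 of 24 comparisons had groups apart, 7 after coverage division, 8 with the GC trend removed, and 15 to 20 without 1 library. The differences that turned positive with the GC trend removed were 0.15, 0.11, 0.069 and 0.052 at Spi1 (own bin, 0.1 to 0.5 Mb, 0.5 to 1 Mb and other chromosomes), 0.076, 0.037 and 0.15 at Spib (0.1 to 0.5 Mb, 0.5 to 1 Mb and other chromosomes), 0.036, 0.21, 0.17 and 0.041 at Irf4 (own bin, 0.1 to 0.5 Mb, 0.5 to 1 Mb and over 10 Mb) and 0.0056, 0.065, 0.12 and 0.14 at Irf8 (0.1 to 0.5 Mb, 0.5 to 1 Mb, 1 to 10 Mb and over 10 Mb). After coverage division they were 0.051, 0.0050 and 0.081 at Spi1 (own bin, over 10 Mb and other chromosomes), 0.048 and 0.19 at Spib (over 10 Mb and other chromosomes), 0.11, 0.023 and 0.057 at Irf4 (0.1 to 0.5 Mb, 0.5 to 1 Mb and over 10 Mb) and 0.15 and 0.22 at Irf8 (1 to 10 Mb and over 10 Mb). Without 1 library they ran from -0.29 to 0.025 at the Spi1 own bin, from -0.11 to 0.025 at Irf4 (0.1 to 0.5 Mb) and from -0.25 to 0.017 at Irf8 (1 to 10 Mb), each positive without Erg KO replicate 1.

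Between windows 0 of 6 pairs had groups apart, and 0 to 2 without 1 library. Spi1 with Irf4 ran from -0.24 without Erg KO replicate 2 (-0.091 without CreT control replicate 1) to 0.26, and Irf4 with Irf8 was -0.0091 without Erg KO replicate 1.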
